A study of Arabidopsis thaliana with 8 samples.

Results

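The core and linker histone genes of Arabidopsis thaliana were followed as 41 loci, picked by locus identifier among the 33674 features of the count table. They were 8 H4 genes, 5 H3.1 genes, 3 H3.3 genes, 12 H2A genes, 10 H2B genes and 3 genes of the linker histone H1. The H2A genes were 4 of the replication type, 2 of H2A.X, 3 of H2A.Z and 3 of H2A.W. For part of the comparisons, the 17 H4, H3.1 and replication-type H2A genes were set against the 11 variant genes (H3.3, H2A.X, H2A.Z and H2A.W). Each of the 41 loci had a row in the table and passed the filter on low counts, which 21008 features passed.

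In a nucleosome, DNA is wound around a core of H2A, H2B, H3 and H4, and linker histone H1 binds where the DNA enters and leaves the core. Replication-type genes are transcribed mostly in S phase, when new chromatin is assembled behind replication forks, so much of their RNA in a seedling comes from dividing cells. Variants are deposited outside replication as well. H3.3 is laid down at transcribed genes, H2A.Z near the start of genes, and H2A.W in heterochromatin, while H2A.X is phosphorylated at DNA breaks. HIS1-3 is a linker histone gene known to be induced by drought and by abscisic acid (ABA), the hormone of the drought response.

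The material was whole 13-day-old seedlings of the Columbia-0 ecotype, treated for 3 h. The groups were skip-1 with 100 µM ABA, skip-1 with 0 µM ABA, wild type with 100 µM ABA and wild type with 0 µM ABA, with 2 libraries each. The series title places SKIP in ABA-mediated alternative splicing, and SKIP is a splicing factor that also takes part in transcription. The skip-1 mutant is 1 line, and its lesion is not described in the labels. The labels do not say whether the 2 libraries of a group were grown apart, so the spread behind each p-value may be technical. In RNA of whole seedlings, fewer cells of a type and less RNA per cell cannot be told apart.

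The libraries held 20870110 to 23640113 counted reads, of which the histone genes took 0.253% to 0.359%. SKIP (AT1G77180) had 108 and 125 CPM in skip-1 with ABA, 104 and 133 in skip-1 without ABA, 136 and 161 in wild type with ABA and 150.5 and 163 in wild type without ABA, where CPM is the count scaled to a common library size by the trimmed mean of M values (TMM). Differences are log2 fold changes ± SE from the quasi-likelihood test of edgeR on the counts, with p-values adjusted over the 21008 features, and a gene with an adjusted p under 0.05 is called higher or lower. Each call was repeated under up to 15 alternative settings of the fit, and where it was lost the settings are named, with the range of the adjusted p over all of them in parentheses. The log2 fold change of SKIP in skip-1 was -0.35 ± 0.15 with ABA (adjusted p = 0.100) and -0.40 ± 0.15 without ABA (adjusted p = 0.0822), past the threshold of 0.05 in neither. Across genes, the correlation was at least 0.988 within groups and at most 0.970 between them. Markers of leaf, root and meristem are given with the other gene lists at the end, and the part of cell-type shares in the histone values was not tested.

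Levels of different genes were compared by the FPKM deposited by the authors, which divide counts by gene length, as means of the 8 libraries. H3.3 was the most abundant class per gene, with 356 FPKM for AT4G40040 and 247 FPKM for both AT4G40030 and AT5G10980. Among H3.1 genes the level ran from 6.23 FPKM (AT3G27360) to 152 FPKM (AT5G65360). H4 genes ran from 31.3 FPKM (AT1G07660) to 174 FPKM (AT5G59690). The H2B genes were the most unequal, with 2.26 FPKM for AT5G02570 and 237 FPKM for HTB4. In the H2A family, the highest of each type were HTA9 (H2A.Z, 148 FPKM), HTA10 (replication-type, 131 FPKM), HTA6 (H2A.W, 121 FPKM) and H2AXA (114 FPKM). The lowest were HTA12 (H2A.W, 9.26 FPKM), HTA8 (H2A.Z, 13.1 FPKM), GAMMA-H2AX (41.4 FPKM) and RAT5 (replication-type, 48.0 FPKM). Linker histone RNA came mostly from AT1G06760 (207 FPKM) and AT2G30620 (144 FPKM), with 18.2 FPKM for HIS1-3.

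Summed over the 17 replication-type genes, the level was 751 and 761 CPM in skip-1 with ABA and 1043 and 1020.2 CPM in skip-1 without ABA. In wild-type seedlings the values were 788 and 809 CPM with ABA and 893 and 890.2 CPM without ABA. On this scale both skip-1 libraries with ABA were the lowest of the 8, and both skip-1 libraries without ABA the highest. The low end depended on the scaling. With library totals the sums with ABA were 761 and 761 CPM in skip-1 and 716 and 742 CPM in wild type, and in FPKM 1221 and 1221 in skip-1 and 1153 and 1193 in wild type, so that wild type with ABA was then lowest. The ratio of skip-1 to wild-type means with ABA turned accordingly, at 0.947 with TMM, 1.04 with library totals and 1.04 in FPKM. Untreated skip-1 was highest under all 3, where FPKM are also scaled by library totals. The H2B genes are not in this sum, and their own sum was highest in untreated wild type under all 3. Without ABA its ratio of skip-1 to wild-type means was 0.895 with TMM, 0.875 with library totals and 0.874 in FPKM. For the 17 replication-type genes, the ratio of ABA-treated to untreated means was 0.733 in skip-1 and 0.895 in wild type. With library totals their ratio was 0.715 in skip-1 and 0.775 in wild type. The 11 variant genes summed to 1118 and 1161 CPM in skip-1 with ABA and 1200.1 and 1284 CPM in skip-1 without ABA. Wild type had 1068 and 1169.7 CPM with ABA and 1081 and 1157 CPM without ABA. Their ratios were 0.917 in skip-1, where the groups did not overlap, and 1.00 in wild type, where they did. With library totals the variant ratios were 0.896 in skip-1 and 0.866 in wild type, and in FPKM 0.897 in skip-1 and 0.872 in wild type, with no overlap in either genotype, so the difference between the genotypes in these ratios was not kept. Where the order of libraries is given for a single gene, it is that of TMM-scaled CPM. These sums were not tested, and 2 libraries against 2 cannot reach the threshold in an exact permutation test. As a share of all H3 FPKM, H3.3 made up 72.2% and 71.2% in skip-1 with ABA, 63.7% and 65.6% in skip-1 without ABA, 67.7% and 69.4% in wild type with ABA and 65.7% and 67.5% in wild type without ABA. The H3.3 share was thus highest in skip-1 with ABA.

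**Figure D1:**
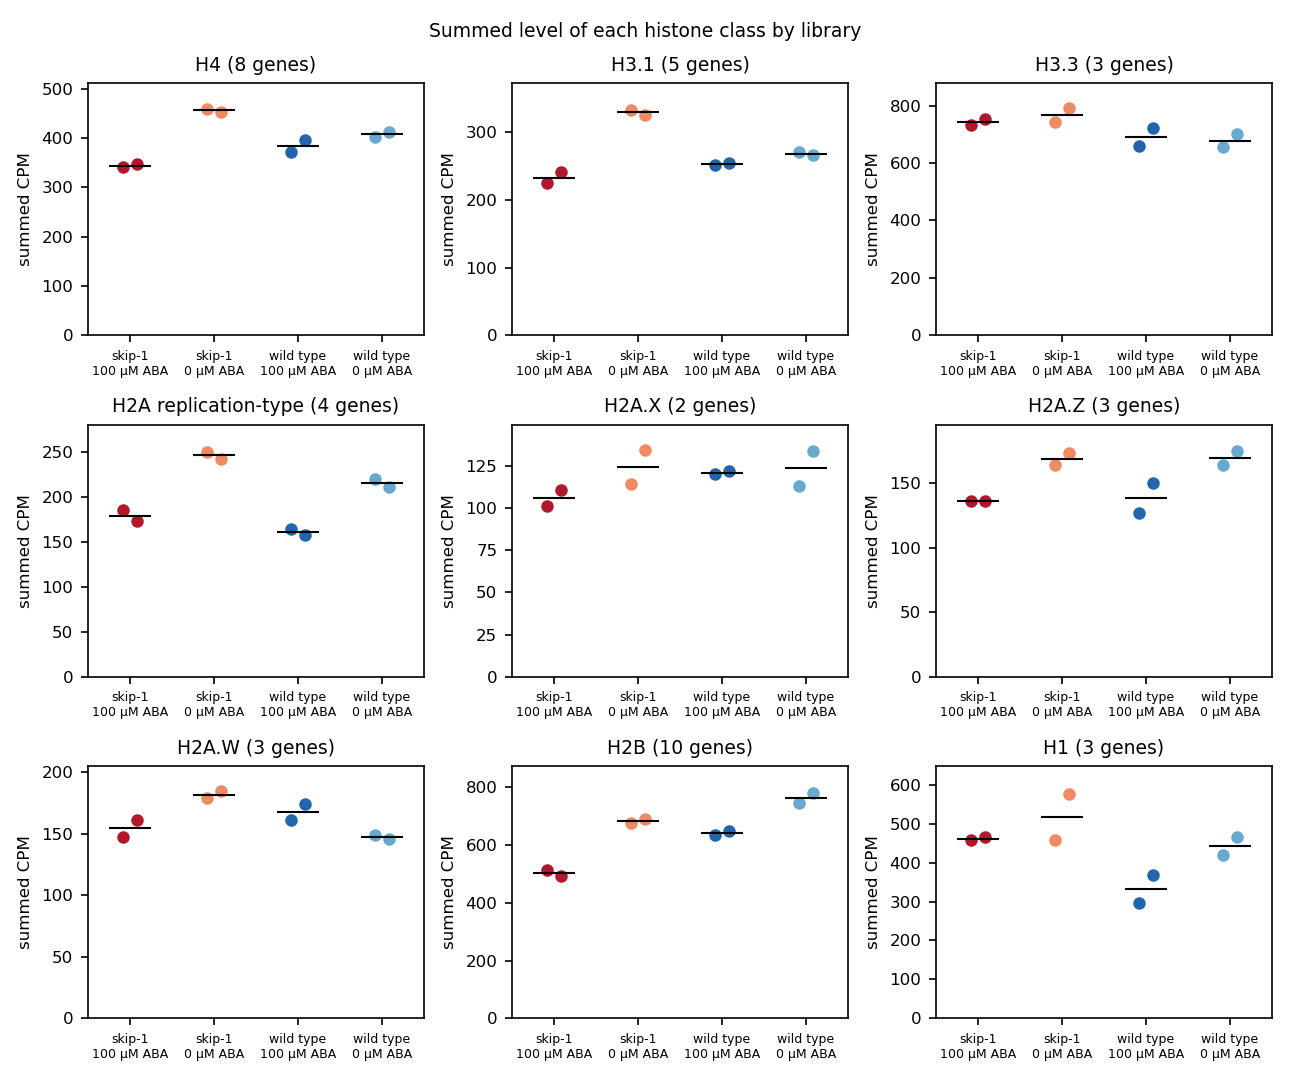
Summed normalised counts (CPM) of each histone class in each library, with points for the 2 libraries of a group and bars for their mean, groups in the order skip-1 with ABA, skip-1 without ABA, wild type with ABA and wild type without ABA. On this TMM scale H4, H3.1 and H2B have their lowest mean sums in skip-1 with ABA, and H1 in wild type with ABA. With library totals the H3.1 mean with ABA is 234 CPM in skip-1 and 231 CPM in wild type, so that wild type is the lower.

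The promoters of these genes hold motifs known from plant histone genes, and 6 are printed to show these motifs and the start regions of genes that moved most. The octamer CGCGGATC and the hexamer ACGTCA are elements of plant histone promoters, and ACGTGNC is the core of the ABA-responsive element (ABRE) bound by basic leucine zipper factors. Each motif was searched on both strands of 300 bases around the annotated start, with RefSeq sequence of TAIR10.1. The octamer was in 10 of 41 histone promoters, against 0.146% of all 27443 promoters. The hexamer was in 13 of 41, against 9.19% of all, and the ABRE in 9 of 41, against 10.3% of all. The E2F motif TTTCCCGC was in 0 of 41, against 0.798% of all. By class, the octamer was in 3 of 5 H3.1, 2 of 8 H4 and 2 of 4 replication-type H2A promoters and in 0 of 10 H2B promoters, while the hexamer was in 9 and the ABRE in 6 of the 10 H2B promoters. The hexamer overlapped an ABRE in 6 promoters. The 250 bases before the start follow with matches in capitals. AT1G09200 (H3.1) and AT3G53650 (H2B) were chosen for their motifs after their values were seen, and the other 4 belong to genes with the largest log2 fold change in 1 direction in at least 1 comparison (AT5G02570 the largest rise and GAMMA-H2AX the largest fall with ABA in wild type, HTA12 the largest fall with ABA in skip-1, and HIS1-3 the most negative value in untreated skip-1 against wild type).
AT1G09200, chr1:2972335-2972584, minus strand: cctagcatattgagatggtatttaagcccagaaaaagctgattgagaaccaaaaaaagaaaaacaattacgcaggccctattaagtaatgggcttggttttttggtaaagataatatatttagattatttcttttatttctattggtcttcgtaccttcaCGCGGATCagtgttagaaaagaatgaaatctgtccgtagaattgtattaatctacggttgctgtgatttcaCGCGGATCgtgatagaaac
AT3G53650, chr3:19889047-19889296, plus strand: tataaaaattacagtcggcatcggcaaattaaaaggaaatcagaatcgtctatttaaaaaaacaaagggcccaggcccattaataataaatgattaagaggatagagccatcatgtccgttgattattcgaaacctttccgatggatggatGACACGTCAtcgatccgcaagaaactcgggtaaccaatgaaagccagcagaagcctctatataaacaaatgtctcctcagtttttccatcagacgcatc
AT5G02570, chr5:577177-577426, minus strand: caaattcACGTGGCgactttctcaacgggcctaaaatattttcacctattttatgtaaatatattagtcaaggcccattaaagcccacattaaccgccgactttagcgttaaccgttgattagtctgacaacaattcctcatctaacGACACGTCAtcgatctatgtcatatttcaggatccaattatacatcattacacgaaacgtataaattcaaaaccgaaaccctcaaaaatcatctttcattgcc
HIS1-3, chr2:7845673-7845922, plus strand: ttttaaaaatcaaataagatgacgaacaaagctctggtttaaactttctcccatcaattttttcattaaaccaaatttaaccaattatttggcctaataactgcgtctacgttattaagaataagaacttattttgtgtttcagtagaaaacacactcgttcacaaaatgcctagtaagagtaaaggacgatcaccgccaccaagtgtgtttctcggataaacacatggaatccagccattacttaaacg
GAMMA-H2AX, chr1:20415288-20415537, minus strand: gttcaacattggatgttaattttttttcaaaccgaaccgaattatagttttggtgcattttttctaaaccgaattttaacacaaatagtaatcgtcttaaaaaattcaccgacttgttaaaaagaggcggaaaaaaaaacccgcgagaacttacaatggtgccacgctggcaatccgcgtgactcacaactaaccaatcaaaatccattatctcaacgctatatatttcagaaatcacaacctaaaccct
HTA12, chr5:574975-575224, plus strand: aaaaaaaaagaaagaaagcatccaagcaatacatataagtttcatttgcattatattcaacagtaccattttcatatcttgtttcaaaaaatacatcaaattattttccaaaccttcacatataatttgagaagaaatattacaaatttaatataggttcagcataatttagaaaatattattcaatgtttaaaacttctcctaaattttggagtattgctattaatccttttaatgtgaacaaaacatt
In AT1G09200 the capitals are octamers, whose bases lie 90 to 83 and 19 to 12 before the start. In AT3G53650 they are an ABRE (99 to 93, read on the other strand) that overlaps the hexamer (96 to 91). AT5G02570 has the same arrangement (ABRE 103 to 97 and hexamer 100 to 95) and a further ABRE (243 to 237). HIS1-3, GAMMA-H2AX and HTA12 have no match wholly within these 250 bases. HIS1-3 has an ABRE that lies in or reaches into the first 50 transcribed bases, which are not shown.

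With ABA, more histone genes fell than rose in both genotypes, and none rose in skip-1. In skip-1, 22 of 41 fell and 0 rose, where 28.5% of all tested features were called, 12.1% lower and 16.3% higher. At an unadjusted p under 0.05, 24 were lower and 1 higher in skip-1, and DESeq2 called 1 higher, HIS1-3. In wild type, 12 fell and 4 rose, where 43.1% of all features were called, 19.5% lower and 23.7% higher. The median log2 fold change of the 41 genes was -0.40 in skip-1 and -0.09 in wild type, beside -0.02 and -0.01 over all tested features. It was negative in 36 of 41 genes in skip-1 and in 29 in wild type. These contrasts share no library but come from the same fit, with a common scaling and estimate of the spread. In both, 9 genes fell, which is 40.9% of those that fell in skip-1 and 75.0% of those that fell in wild type. The same overlap over all features is not given here, so these percentages have no background to be read against. A further 13 fell in skip-1 with no call in wild type, and 3 fell in wild type with no call in skip-1. No histone gene passed the threshold for the difference between these ABA effects (the interaction, 3.07% of all features called, 2.27% negative and 0.800% positive, smallest adjusted p among histone genes 0.0850, edgeR without a replicate block and DESeq2 each calling 0). With the replicate number as a block, edgeR called 2, both negative, AT5G10400 (adjusted p = 0.0401) and AT5G59970 (adjusted p = 0.0492), and 1357 of all features, against 644 without the block. At an unadjusted p under 0.05 the interaction was past in 14 of the 41 genes, all 14 negative, where 19.7% of all features were past, 12.1% negative. Its median was -0.20, beside -0.02 over all features.

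These counts moved with single libraries and with the scaling. The count lower in skip-1 was 14 without library 2 of skip-1 with ABA, and the count lower in wild type was 7 without library 1 of wild type with ABA. The 4 higher in wild type became 2 without any 1 of the 4 wild-type libraries, and 1 gene was called higher in skip-1 without library 2 of skip-1 without ABA. With library totals alone in place of TMM, the median over all features shifted by over 0.1, to -0.22 for ABA in wild type, 0.12 for skip-1 against wild type with ABA and 0.15 for the interaction. The share of calls that were higher then went to 36.0% with library totals, against 54.9% with TMM, for ABA in wild type. It was 62.6% against 43.9% for skip-1 with ABA and 55.5% against 26.1% for the interaction. With totals, 22 histone genes fell and 3 rose with ABA in wild type (median -0.29), 22 fell and 0 rose in skip-1 (median -0.43), and the interaction median was -0.03, with 24 of 41 negative. Of the 57 calls of histone genes in the 4 comparisons between groups, 18 held under all 15 alternatives, 39 were lost under at least 1 and 0 changed sign. The replicate block ended none of them and added others. With ABA in skip-1 it called HIS1-3 higher (adjusted p = 0.00215) and HTA9 and AT2G28720 lower (0.0427 and 0.0225), and in wild type AT3G46320, HTA9 and HTA12 lower (0.0211, 0.0272 and 0.0330).

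**Figure D2:**
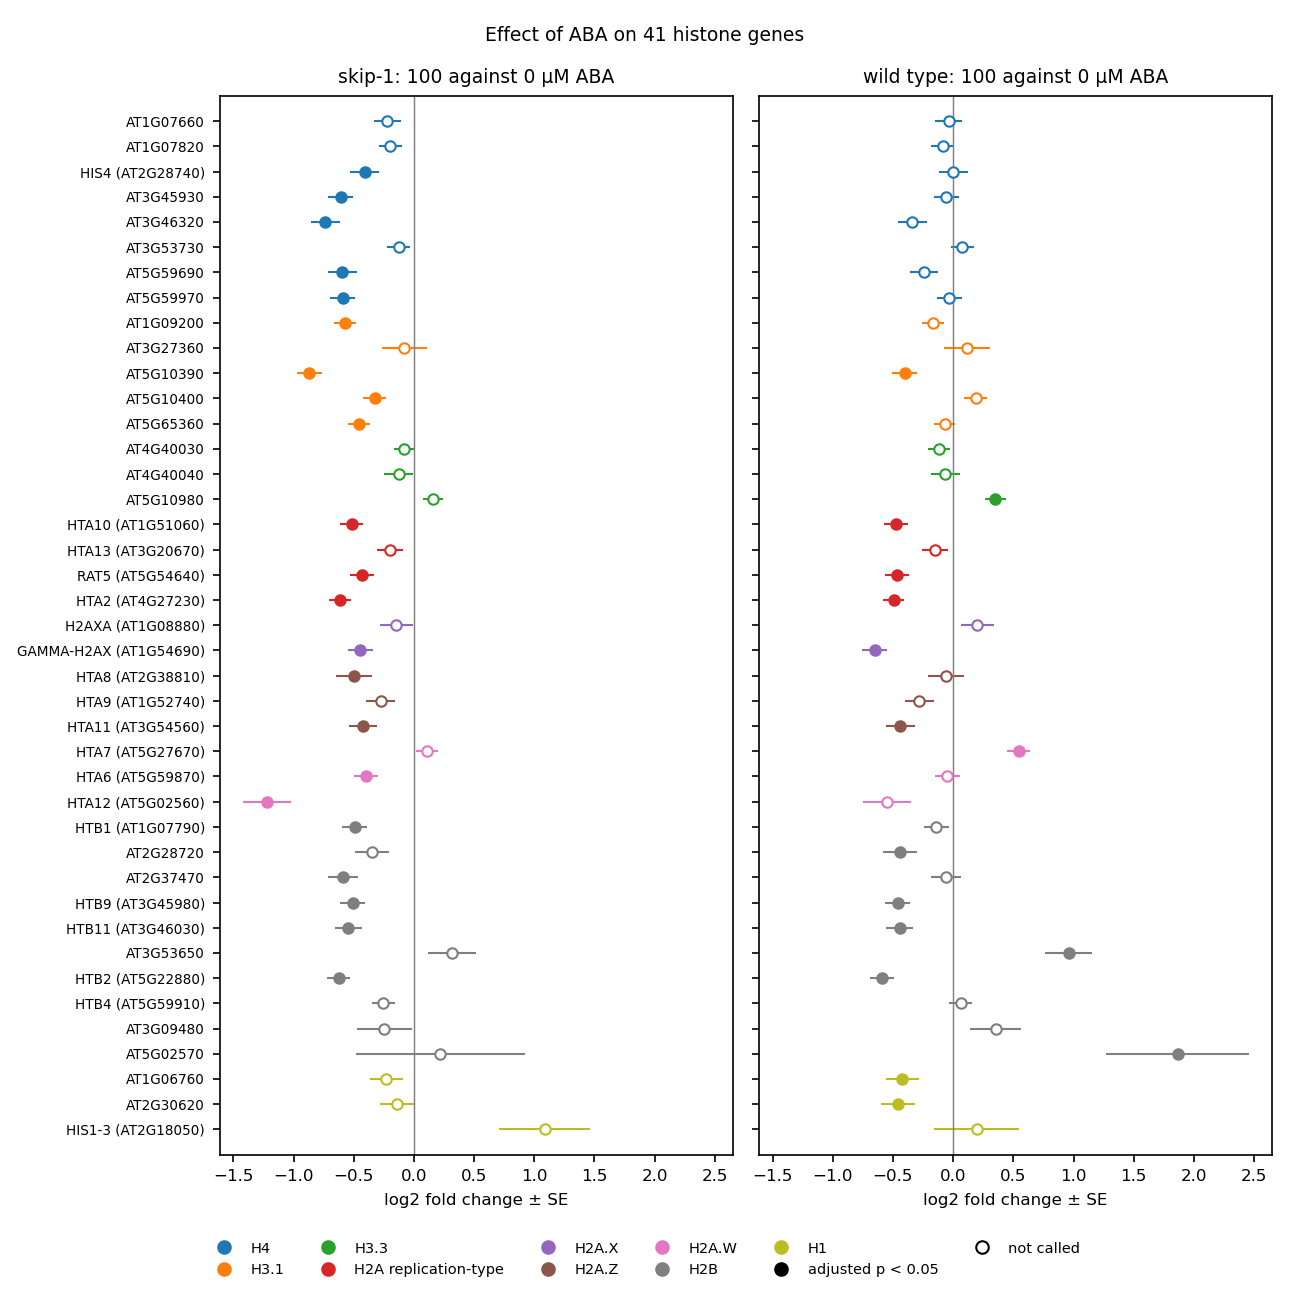
Log2 fold change with ABA (horizontal axis, bars show 1 SE) of each of the 41 histone genes by class, in skip-1 (left) and wild type (right), with filled points for genes past an adjusted p of 0.05. In skip-1 the called genes all lie below 0, 22 in number, and in wild type 12 lie below and 4 above 0.

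Between the genotypes, 5 histone genes were higher and 1 lower in skip-1 without ABA, where 20.5% of all features were called, 10.4% higher and 10.0% lower. With ABA, 4 were higher and 9 lower in skip-1, where 31.0% were called, 13.6% higher and 17.4% lower. The median log2 fold change was -0.11 with ABA and 0.11 without ABA, beside -0.02 and 0.02 over all features. These contrasts share the skip-1 or the wild-type libraries with the ABA contrasts above, so their values are given side by side and not as separate evidence. The 5 higher without ABA became 0 without library 1 of skip-1 without ABA or either library of wild type without ABA, and 3 without library 2 of skip-1 without ABA. The 1 lower became 0 without library 1 of skip-1 without ABA, either library of skip-1 with ABA, library 1 of wild type with ABA or library 2 of wild type without ABA. With ABA, the 9 lower became 3 and 2 without libraries 1 and 2 of skip-1 with ABA, and 2 and 4 without libraries 1 and 2 of wild type with ABA. The 4 higher became 0 and 1 without libraries 1 and 2 of skip-1 with ABA, and 1 and 2 without libraries 1 and 2 of wild type with ABA. With library totals, 5 were higher and 4 lower with ABA (median 0.03). With the replicate block, 9 were higher and 2 lower without ABA, the added ones being AT3G46320 (adjusted p = 0.0200), AT5G59970 (0.0499), AT5G10400 (0.0411) and AT1G06760 (0.0406) higher and HTB11 (0.0313) lower. With ABA the block added HIS4 (0.0352) and HTB9 (0.0249) to the lower ones.

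**Figure D3:**
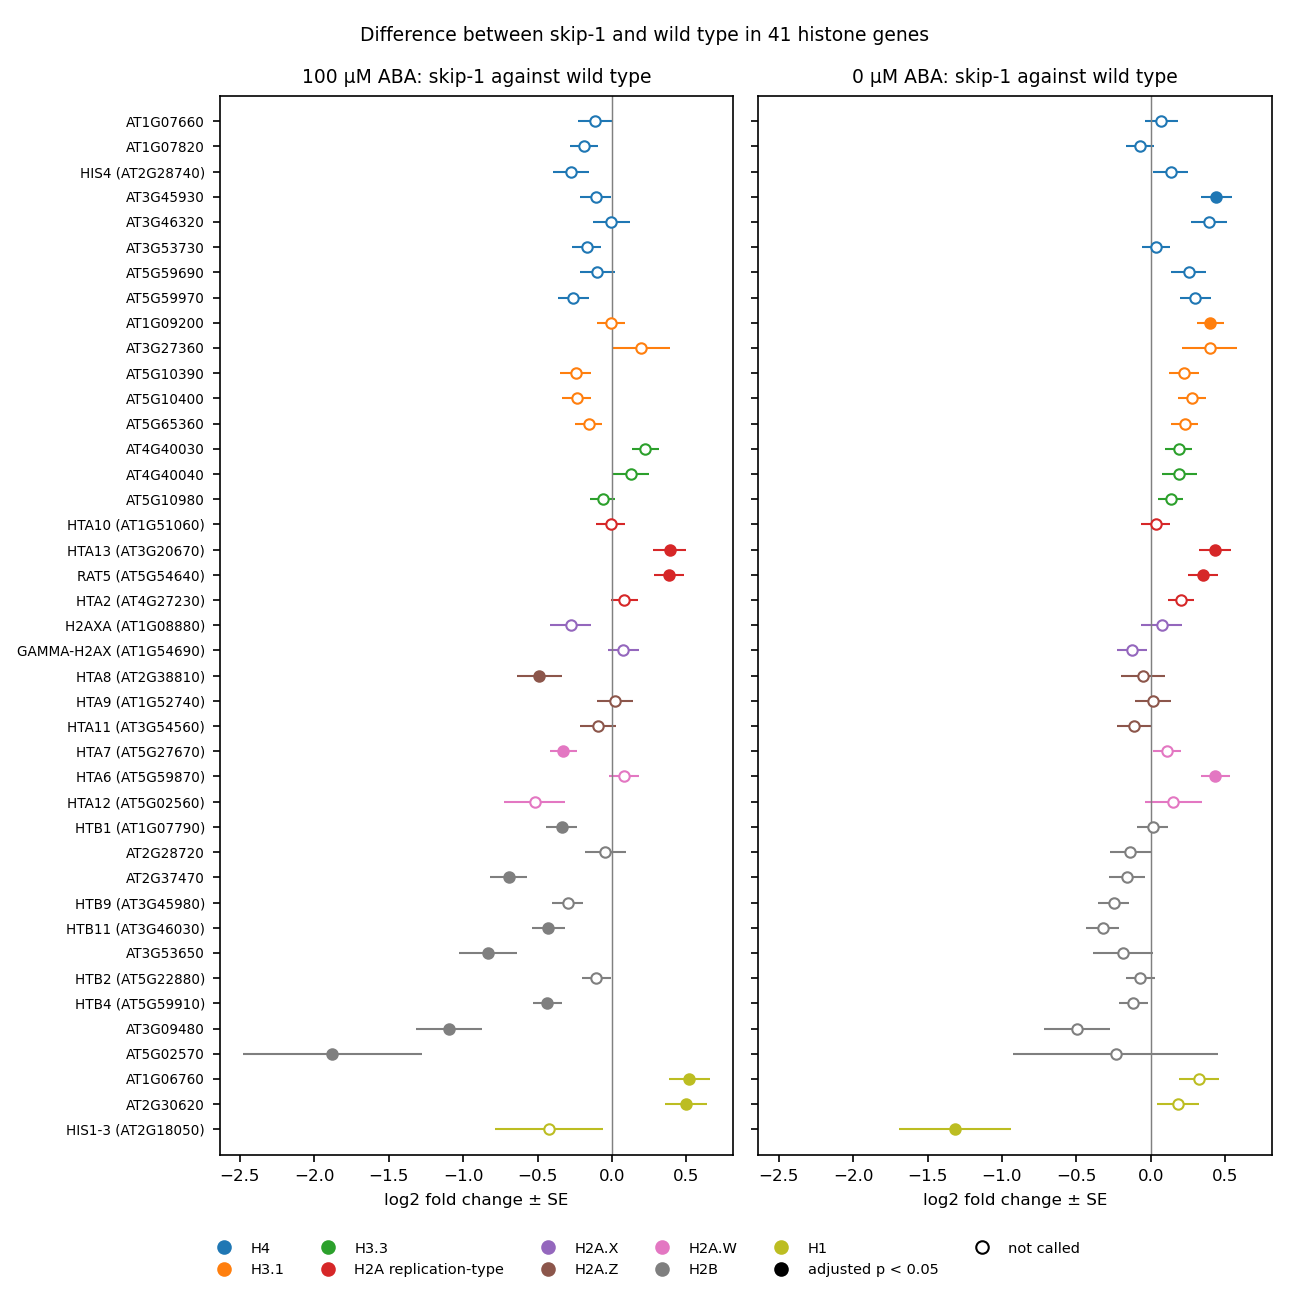
Log2 fold change of skip-1 against wild type (horizontal axis, bars show 1 SE) of each of the 41 histone genes by class, with 100 µM ABA (left) and 0 µM ABA (right), with filled points for genes past an adjusted p of 0.05. With ABA the 9 lower genes are 7 H2B genes, 1 H2A.Z gene and 1 H2A.W gene, and the 4 higher ones are replication-type H2A and H1 genes.

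H4 and H3.1 form the central tetramer of the nucleosome. With ABA and TMM scaling, 9 of these 13 genes fell in skip-1, against 1 of 13 in wild type. Of all tested features, 12.1% were lower with ABA in skip-1 and 19.5% in wild type. The contrast between genotypes depends on the scaling. With library totals the count over all histone genes lower in wild type went from 12 to 22, and in skip-1 it was 22. Of the 8 H4 genes 5 fell in skip-1 and 0 in wild type (medians -0.50 and -0.05), and of the 5 H3.1 genes 4 fell in skip-1 and 1 in wild type (medians -0.45 and -0.07). Summed H4 was 341 and 347 CPM in skip-1 with ABA and 459 and 453 CPM in skip-1 without ABA. The wild-type values were 372 and 396 CPM with ABA and 403 and 412 CPM without ABA. On this TMM scale both libraries of skip-1 with ABA were below, and both of skip-1 without ABA above, every other library. Summed H3.1 was 225 and 241 CPM in skip-1 with ABA and 333 and 325 CPM in skip-1 without ABA. Wild type was at 252 and 255 CPM with ABA and 270.2 and 267 CPM without ABA. Its TMM-scaled order was the same at both ends. With library totals, H4 with ABA was 346 and 347 CPM in skip-1 and 338 and 364 CPM in wild type, and H3.1 228 and 241 CPM in skip-1 and 229 and 234 CPM in wild type. The ABA-treated genotypes overlapped on that scale for both classes, as they did in FPKM, while untreated skip-1 remained highest. The interaction medians were -0.37 for H4 and -0.40 for H3.1 (-0.20 and -0.23 with library totals), and no gene of either class passed its threshold without the replicate block.

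Among H4 genes, AT3G46320 had 20.9 and 18.1 CPM in skip-1 with ABA and 33.7 and 31.2 CPM in skip-1 without ABA. Levels in wild type were 21.1 and 18.0 CPM with ABA and 25.4 and 24.0 CPM without ABA. Its log2 fold change with ABA was -0.73 ± 0.12 in skip-1 (adjusted p = 0.00288) and -0.34 ± 0.12 in wild type (adjusted p = 0.0550). Treated and untreated libraries did not overlap in either genotype. AT3G45930 had 23.1 and 20.6 CPM in skip-1 with ABA and 33.5 and 33.1 CPM in skip-1 without ABA. Wild-type libraries had 24.5 and 22.7 CPM with ABA and 24.5 and 24.5 CPM without ABA. AT3G45930 fell with ABA in skip-1 (log2 fold change -0.61 ± 0.10, adjusted p = 0.00311) and was higher in skip-1 than in wild type without ABA (log2 fold change 0.44 ± 0.10, adjusted p = 0.0194). The 2 untreated skip-1 libraries alone stood apart, since the other 6 lay between 20.6 and 24.5 CPM. AT5G59970 had 25.7 and 26.4 CPM in skip-1 with ABA and 40.9 and 37.6 CPM in skip-1 without ABA. In wild-type seedlings the values were 33.3 and 29.1 CPM with ABA and 32.1 and 31.7 CPM without ABA. In skip-1 it fell (log2 fold change -0.59 ± 0.10, adjusted p = 0.00358). Its interaction was -0.56 ± 0.15 (adjusted p = 0.0854). AT5G59690, the most abundant H4 gene, had 79.6 and 89.4 CPM in skip-1 with ABA and 128 and 127 CPM in skip-1 without ABA. Wild type had 81.5 and 99.3 CPM with ABA and 102 and 112 CPM without ABA. With ABA it fell in skip-1 (log2 fold change -0.59 ± 0.12, adjusted p = 0.00667), as did HIS4 (log2 fold change -0.41 ± 0.12, adjusted p = 0.0356).

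The least abundant H4 gene, AT1G07660, had 20.4 and 19.3 CPM in skip-1 with ABA and 23.0 and 23.2 CPM in skip-1 without ABA. The wild-type values were 19.9 and 23.0 CPM with ABA and 21.5 and 22.5 CPM without ABA. It had no call, nor had AT1G07820 and AT3G53730. The H4 calls in skip-1 held under the alternatives for AT3G45930, AT3G46320 and AT5G59970. The call of AT5G59690 was lost without library 1 of skip-1 with ABA (adjusted p 0.000785 to 0.0528). That of HIS4 was lost without either library of skip-1 with ABA or library 1 of skip-1 without ABA and in a fit of only the groups compared (adjusted p 0.00719 to 0.177). The higher level of AT3G45930 in skip-1 without ABA was lost without any 1 of the 4 libraries compared (adjusted p 0.0119 to 0.102).

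Among H3.1 genes, AT5G10390 fell in both genotypes, with 17.4 and 17.0 CPM in skip-1 with ABA and 31.3 and 31.6 CPM in skip-1 without ABA. Wild type was at 19.6 and 21.2 CPM with ABA and 25.9 and 28.0 CPM without ABA. The log2 fold change with ABA was -0.87 ± 0.10 in skip-1 (adjusted p = 0.000486) and -0.40 ± 0.10 in wild type (adjusted p = 0.0123). Treated and untreated libraries did not overlap in either genotype. AT1G09200, whose promoter with a pair of octamers is printed above, had 72.0 and 80.6 CPM in skip-1 with ABA and 113 and 113 CPM in skip-1 without ABA. Levels in wild type were 77.0 and 76.2 CPM with ABA and 87.9 and 84.1 CPM without ABA. In skip-1 it fell with ABA (log2 fold change -0.57 ± 0.09, adjusted p = 0.00229) and without ABA was higher in skip-1 than in wild type (log2 fold change 0.40 ± 0.09, adjusted p = 0.0181). The other 6 libraries lay between 72.0 and 87.9 CPM. AT5G65360, the most abundant H3.1 gene, had 89.7 and 98.5 CPM in skip-1 with ABA and 131 and 127 CPM in skip-1 without ABA. Wild-type libraries had 103 and 107 CPM with ABA and 109 and 111 CPM without ABA. In skip-1 it fell (log2 fold change -0.45 ± 0.09, adjusted p = 0.00639).

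With ABA, AT5G10400 fell in skip-1 (log2 fold change -0.33 ± 0.10, adjusted p = 0.0338) and had a log2 fold change of 0.19 ± 0.10 in wild type (adjusted p = 0.144). Its interaction, -0.51 ± 0.13, had an adjusted p of 0.0850. The least abundant H3.1 gene, AT3G27360, which overlaps AT3G27380 on the same strand, had 5.74 and 5.36 CPM in skip-1 with ABA and 6.21 and 5.50 CPM in skip-1 without ABA. In wild-type seedlings the values were 4.45 and 5.22 CPM with ABA and 4.86 and 4.05 CPM without ABA. No comparison called it. The calls of AT1G09200 and AT5G10390 in skip-1 held under the alternatives. In skip-1, AT5G65360 lost its call without library 1 of skip-1 with ABA (adjusted p 0.00227 to 0.0577), and AT5G10400 without any 1 of the 4 libraries compared, with DESeq2 and in a fit of only the groups compared (adjusted p 0.0180 to 0.136). In wild type, AT5G10390 lost its call without library 1 of wild type with ABA or library 2 of wild type without ABA (adjusted p 0.00172 to 0.0825). The higher level of AT1G09200 in untreated skip-1 was lost without library 1 of skip-1 without ABA or either library of wild type without ABA (adjusted p 0.0111 to 0.113).

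The replication-type H2A genes fell with ABA in both genotypes. HTA10, HTA2 and RAT5 fell in both, and HTA13 had no ABA call, with class medians of -0.48 in skip-1 and -0.47 in wild type. Among all tested features, 12.1% fell with ABA in skip-1 and 19.5% in wild type. HTA10, the most abundant, had 76.1 and 68.4 CPM in skip-1 with ABA and 106 and 100.5 CPM in skip-1 without ABA. Wild type had 75.8 and 69.6 CPM with ABA and 103 and 98.6 CPM without ABA. All 4 ABA-treated libraries were below all 4 untreated ones, and the genotypes lay together. HTA10 changed with ABA by -0.52 ± 0.10 in skip-1 (adjusted p = 0.00508) and -0.47 ± 0.10 in wild type (adjusted p = 0.00451). HTA2 changed by -0.61 ± 0.09 in skip-1 (adjusted p = 0.00134) and -0.50 ± 0.09 in wild type (adjusted p = 0.00221). RAT5, known for its need in Agrobacterium transformation, had 31.9 and 29.0 CPM in skip-1 with ABA and 40.9 and 41.4 CPM in skip-1 without ABA. The wild-type values were 22.5 and 24.2 CPM with ABA and 31.2 and 33.3 CPM without ABA. RAT5 fell with ABA (-0.43 ± 0.10 in skip-1, adjusted p = 0.0124, and -0.46 ± 0.10 in wild type, adjusted p = 0.00584). It was also higher in skip-1 (0.38 ± 0.10 with ABA, adjusted p = 0.0217, and 0.35 ± 0.10 without ABA, adjusted p = 0.0382). HTA13 had 40.3 and 41.2 CPM in skip-1 with ABA, 48.0 and 45.5 in skip-1 without ABA, 33.3 and 29.0 in wild type with ABA and 36.8 and 32.6 in wild type without ABA, each skip-1 library above each wild-type library. It was higher in skip-1 with ABA (0.39 ± 0.11, adjusted p = 0.0274) and without ABA (0.43 ± 0.11, adjusted p = 0.0248).

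The ABA calls of HTA10 and HTA2 in both genotypes, and that of RAT5 in wild type, held under the alternatives. RAT5 lost its ABA call in skip-1 without library 2 of skip-1 with ABA or library 2 of skip-1 without ABA (adjusted p 0.00930 to 0.0951). Against wild type with ABA, RAT5 lost its call without library 1 of skip-1 with ABA or either library of wild type with ABA (adjusted p 0.00741 to 0.132) and HTA13 without either library of skip-1 with ABA or library 2 of wild type with ABA (adjusted p 0.0100 to 0.146). Without ABA, RAT5 lost its call without any 1 of the 8 libraries, with library totals alone, with DESeq2 and in a fit of only the groups compared (adjusted p 0.0289 to 0.181) and HTA13 without library 1 of skip-1 without ABA or either library of wild type without ABA (adjusted p 0.0106 to 0.159). HTA13 and HTA10 share 6.18% and 4.81% of their 50-base stretches with other genes, so a small part of their reads could not be placed by sequence alone.

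The H3.3 genes, which supply H3 outside S phase, gave 1 call with ABA. The share of all tested features called with ABA was 28.5% in skip-1 and 43.1% in wild type. With TMM none of the 3 fell in either genotype, and their summed level was 733 and 753 CPM in skip-1 with ABA and 742 and 792 CPM in skip-1 without ABA. Wild type was at 659 and 723 CPM with ABA and 654 and 702 CPM without ABA. The ABA ratio was 0.968 in skip-1 and 1.02 in wild type, in each case with overlapping libraries. With library totals the ratios were 0.946 in skip-1 and 0.883 in wild type, and in FPKM 0.955 in skip-1 and 0.895 in wild type, with treated libraries below untreated ones in both genotypes. AT5G10980 had 185 and 192 CPM in skip-1 with ABA and 169 and 169.7 CPM in skip-1 without ABA. Levels in wild type were 194 and 199 CPM with ABA and 154 and 154 CPM without ABA. It was the 1 H3.3 gene called, higher with ABA in wild type (log2 fold change 0.35 ± 0.09, adjusted p = 0.00980). Its log2 fold change with ABA in skip-1 was 0.16 ± 0.08 (adjusted p = 0.203). The wild-type call was lost without any 1 of the 4 libraries compared and with library totals alone (adjusted p 0.00599 to 0.172). AT4G40040, the most abundant histone gene per length, had 329 and 346 CPM in skip-1 with ABA and 344 and 394 CPM in skip-1 without ABA. Wild-type libraries had 287 and 331 CPM with ABA and 304 and 342 CPM without ABA. Neither it nor AT4G40030 was called in any comparison with TMM. With library totals AT4G40030 was called lower with ABA in wild type (log2 fold change -0.32, adjusted p = 0.0160) and, with ABA, higher in skip-1 than in wild type (0.36, adjusted p = 0.0160). For AT4G40030 the levels were 219 and 215 CPM in skip-1 with ABA and 229 and 228 CPM in skip-1 without ABA. In wild-type seedlings the values were 178 and 193 CPM with ABA and 196 and 206 CPM without ABA.

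Of the H2A.X genes, whose protein marks DNA breaks, GAMMA-H2AX fell with ABA and H2AXA had no call. GAMMA-H2AX had 25.6 and 29.3 CPM in skip-1 with ABA, 37.1 and 37.5 in skip-1 without ABA, 26.0 and 25.9 in wild type with ABA and 39.2 and 42.4 in wild type without ABA, with all 4 ABA-treated libraries below all 4 untreated ones. It fell in both genotypes (-0.45 ± 0.10 in skip-1, adjusted p = 0.0130, and -0.65 ± 0.10 in wild type, adjusted p = 0.00114). The wild-type value was the largest fall of any histone gene there, and the call held under the alternatives. The skip-1 call was lost without library 1 of skip-1 with ABA or library 2 of skip-1 without ABA (adjusted p 0.00686 to 0.0969). H2AXA, the more abundant gene, had 75.4 and 81.5 CPM in skip-1 with ABA, 77.2 and 96.7 in skip-1 without ABA, 94.0 and 96.2 in wild type with ABA and 74.0 and 91.3 in wild type without ABA, with treated and untreated libraries overlapping in skip-1. GAMMA-H2AX overlaps genes on the opposite strand, and without a stated strand setting their reads cannot be told apart.

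Of the H2A.Z genes, which encode the variant exchanged by the SWR1 complex, HTA11 fell with ABA in both genotypes (-0.42 ± 0.12 in skip-1, adjusted p = 0.0278, and -0.44 ± 0.12 in wild type, adjusted p = 0.0159). HTA8, the least abundant, had 6.97 and 6.36 CPM in skip-1 with ABA and 9.86 and 8.98 CPM in skip-1 without ABA. Wild type had 9.01 and 9.71 CPM with ABA and 10.4 and 9.11 CPM without ABA. Its skip-1 libraries with ABA were the lowest, and the other 6 lay between 8.98 and 10.4 CPM. HTA8 fell with ABA in skip-1 (log2 fold change -0.50 ± 0.15, adjusted p = 0.0374) and with ABA was lower in skip-1 than in wild type (log2 fold change -0.49 ± 0.15, adjusted p = 0.0392). HTA9, the most abundant, had 107 and 110.2 CPM in skip-1 with ABA and 125 and 137 CPM in skip-1 without ABA. The wild-type values were 95.9 and 118 CPM with ABA and 122 and 138 CPM without ABA. Its groups gave no call. The HTA11 calls were lost in skip-1 without library 2 of skip-1 with ABA or either library of skip-1 without ABA and in a fit of only the groups compared (adjusted p 0.0140 to 0.174), and in wild type without library 1 of wild type with ABA or library 1 of wild type without ABA (adjusted p 0.00343 to 0.0889). HTA8 lost its ABA call without any 1 of the 4 libraries compared or library 2 of wild type without ABA, with DESeq2 and in a fit of only the groups compared (adjusted p 0.0315 to 0.179), and its call against wild type without any 1 of the 4 libraries compared, library 2 of skip-1 without ABA or either library of wild type without ABA, with library totals alone, with DESeq2 and in a fit of only the groups compared (adjusted p 0.0327 to 0.170).

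The H2A.W genes of heterochromatin gave 2 falls with ABA in skip-1 (HTA6 and HTA12) and 1 rise in wild type (HTA7). Among all tested features, 12.1% fell with ABA in skip-1 and 23.7% rose in wild type. HTA7 had 62.5 and 67.3 CPM in skip-1 with ABA, 57.7 and 62.6 in skip-1 without ABA, 78.9 and 83.8 in wild type with ABA and 55.0 and 56.7 in wild type without ABA, with both libraries of wild type with ABA above all others. It rose with ABA in wild type (log2 fold change 0.54 ± 0.09, adjusted p = 0.00174), a call that held under the alternatives. In skip-1 the log2 fold change was 0.11 ± 0.09 (adjusted p = 0.415), and with ABA it was lower in skip-1 than in wild type (log2 fold change -0.33 ± 0.09, adjusted p = 0.0292). HTA6, the most abundant, had 81.2 and 90.3 CPM in skip-1 with ABA and 111 and 115 CPM in skip-1 without ABA. Wild type was at 76.5 and 85.3 CPM with ABA and 86.2 and 81.0 CPM without ABA. Both libraries of untreated skip-1 stood above the other 6. HTA6 fell with ABA in skip-1 (log2 fold change -0.40 ± 0.10, adjusted p = 0.0182) and was higher in untreated skip-1 than in untreated wild type (log2 fold change 0.43 ± 0.10, adjusted p = 0.0183).

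HTA12 had 3.73 and 3.77 CPM in skip-1 with ABA, 10.2 and 7.29 in skip-1 without ABA, 5.74 and 5.01 in wild type with ABA and 7.98 and 7.78 in wild type without ABA, with skip-1 with ABA lowest. Its fall with ABA in skip-1 was the largest of any histone gene (log2 fold change -1.22 ± 0.20, adjusted p = 0.00259) and held under the alternatives. In wild type its log2 fold change was -0.55 ± 0.20 (adjusted p = 0.0503). The H2B gene AT5G02570 lies wholly within HTA12 on the opposite strand, over 522 bases, so counts of these genes are uncertain without a stated strand setting. HTA7 lost its call against wild type without any 1 of the 4 libraries compared, with library totals alone, with DESeq2 and in a fit of only the groups compared (adjusted p 0.0125 to 0.164). HTA6 lost its ABA call without library 1 of skip-1 with ABA or library 2 of skip-1 without ABA (adjusted p 0.00952 to 0.125), and its call in untreated skip-1 without library 1 of skip-1 without ABA or either library of wild type without ABA (adjusted p 0.00939 to 0.118).

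The H2B genes, partners of H2A in the nucleosome, fell with ABA in both genotypes in 3 cases (HTB2, HTB9 and HTB11), and 7 of them stood lower in ABA-treated skip-1 than in ABA-treated wild type. With ABA, 5 of 10 fell and 0 rose in skip-1 (median -0.42), and 4 fell and 2 rose in wild type (median -0.10). Of all features, 12.1% were lower with ABA in skip-1 and 19.5% in wild type. Against wild type, 7 of 10 were lower in skip-1 with ABA (median -0.43), where 17.4% of all features were lower. Without ABA 0 of 10 were called (median -0.17), where 20.5% of all features were. With library totals the median of all features in the comparison with ABA shifts to 0.12, and HTB1, HTB11 and AT5G02570 lost their calls. Summed H2B was 513 and 495 CPM in skip-1 with ABA and 677 and 690.3 CPM in skip-1 without ABA. Levels in wild type were 636 and 648 CPM with ABA and 747 and 781 CPM without ABA. Both libraries of skip-1 with ABA lay below the other 6, and untreated wild type was highest.

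HTB2 had 86.3 and 88.4 CPM in skip-1 with ABA, 135 and 134 in skip-1 without ABA, 87.9 and 100.0 in wild type with ABA and 136 and 147 in wild type without ABA, with all ABA-treated libraries below all untreated ones. It fell in both genotypes (-0.63 ± 0.10 in skip-1, adjusted p = 0.00200, and -0.59 ± 0.10 in wild type, adjusted p = 0.00138), and both calls held under the alternatives. HTB9 fell as well (-0.51 ± 0.10 in skip-1, adjusted p = 0.00768, and -0.46 ± 0.10 in wild type, adjusted p = 0.00736). HTB11 had 59.6 and 57.0 CPM in skip-1 with ABA and 78.4 and 91.7 CPM in skip-1 without ABA. Wild-type libraries had 73.8 and 82.9 CPM with ABA and 102 and 111 CPM without ABA. HTB11 fell with ABA (-0.55 ± 0.11 in skip-1, adjusted p = 0.00746, and -0.44 ± 0.11 in wild type, adjusted p = 0.0116) and was lower in skip-1 with ABA (log2 fold change -0.43 ± 0.11, adjusted p = 0.0210). AT2G28720 fell in wild type (log2 fold change -0.44 ± 0.14, adjusted p = 0.0310), and HTB1 fell in skip-1 (log2 fold change -0.49 ± 0.10, adjusted p = 0.00858).

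AT2G37470 had 25.4 and 21.4 CPM in skip-1 with ABA, 34.5 and 36.2 in skip-1 without ABA, 38.6 and 37.2 in wild type with ABA and 42.9 and 36.1 in wild type without ABA, lowest in skip-1 with ABA and between 34.5 and 42.9 CPM in the other 6 libraries. It fell with ABA in skip-1 (log2 fold change -0.59 ± 0.12, adjusted p = 0.00812) and had a log2 fold change of -0.06 ± 0.12 in wild type (adjusted p = 0.733). With ABA its level was lower in skip-1 than in wild type (log2 fold change -0.69 ± 0.12, adjusted p = 0.00444). Among the 41 histone genes, this was the 1 call against wild type, with or without ABA, that held under the alternatives. HTB4, the most abundant H2B gene, had 163 and 154 CPM in skip-1 with ABA and 192 and 186 CPM in skip-1 without ABA. In wild-type seedlings the values were 220.4 and 208 CPM with ABA and 194 and 216 CPM without ABA. It was lower in skip-1 with ABA (log2 fold change -0.43 ± 0.10, adjusted p = 0.0113) and had no ABA call in either genotype. HTB1 (-0.34 ± 0.10, adjusted p = 0.0386) and AT3G09480 (-1.09 ± 0.22, adjusted p = 0.00777) were lower too. AT3G09480 had 2.28 and 2.23 CPM in skip-1 with ABA and 2.48 and 2.87 CPM in skip-1 without ABA. Wild type had 5.39 and 4.23 CPM with ABA and 3.49 and 4.05 CPM without ABA.

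AT3G53650, whose promoter with ABRE and hexamer is printed above, rose with ABA in wild type. Its levels were 6.92 and 6.77 CPM in skip-1 with ABA and 4.65 and 6.40 CPM in skip-1 without ABA. The wild-type values were 12.6 and 11.8 CPM with ABA and 7.02 and 5.51 CPM without ABA. Both libraries of wild type with ABA stood above the other 6, which lay between 4.65 and 7.02 CPM. The log2 fold change with ABA was 0.96 ± 0.19 in wild type (adjusted p = 0.00413), a call that held under the alternatives, and 0.31 ± 0.20 in skip-1 (adjusted p = 0.274). With ABA it was lower in skip-1 than in wild type (log2 fold change -0.83 ± 0.19, adjusted p = 0.0135). AT5G02570, which shares its bases with HTA12, had 0.501 and 0.636 CPM in skip-1 with ABA and 0.120 and 0.893 CPM in skip-1 without ABA. Wild type was at 2.28 and 1.93 CPM with ABA and 0.623 and 0.527 CPM without ABA. It rose with ABA in wild type (log2 fold change 1.86 ± 0.59, adjusted p = 0.0321) and was lower in skip-1 with ABA (log2 fold change -1.88 ± 0.60, adjusted p = 0.0444).

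Several H2B calls rested on single libraries. With ABA in skip-1, HTB11 lost its call without library 2 of skip-1 with ABA or library 2 of skip-1 without ABA (adjusted p 0.00203 to 0.0541), HTB1 without library 2 of skip-1 with ABA (adjusted p 0.00350 to 0.0670) and AT2G37470 without library 2 of skip-1 with ABA (adjusted p 0.00269 to 0.0646). With ABA in wild type, HTB9 lost its call without library 1 of wild type with ABA (adjusted p 0.000759 to 0.0508), HTB11 without library 1 of wild type with ABA or library 2 of wild type without ABA (adjusted p 0.00108 to 0.0744) and AT2G28720 without library 2 of wild type with ABA or library 1 of wild type without ABA (adjusted p 0.00488 to 0.163). AT5G02570 lost its rise without any 1 of the 4 libraries compared (adjusted p 0.00322 to 0.143). Against wild type with ABA, AT3G09480 lost its call without library 1 of wild type with ABA (adjusted p 0.00697 to 0.0559) and HTB4 without library 2 of skip-1 with ABA or library 1 of wild type with ABA (adjusted p 0.00511 to 0.0750). AT3G53650 lost that call without either library of skip-1 with ABA or library 1 of wild type with ABA (adjusted p 0.00705 to 0.0716). HTB11 lost it without either library of skip-1 with ABA or library 2 of wild type with ABA and with library totals alone (adjusted p 0.00835 to 0.117). HTB1 lost it without any 1 of the 4 libraries compared or either library of wild type without ABA, with library totals alone, with DESeq2 and in a fit of only the groups compared (adjusted p 0.0191 to 0.225), and AT5G02570 without any 1 of the 4 libraries compared or either library of wild type without ABA and with library totals alone (adjusted p 0.00575 to 0.175).

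The most abundant pair of linker histone genes was lowest in wild type with ABA. AT1G06760 had 231 and 239 CPM in skip-1 with ABA and 244 and 306 CPM in skip-1 without ABA. Levels in wild type were 148 and 179.7 CPM with ABA and 211 and 229 CPM without ABA. In wild type it fell with ABA (log2 fold change -0.42 ± 0.14, adjusted p = 0.0341). Its log2 fold change was -0.23 ± 0.14 in skip-1 (adjusted p = 0.247), and with ABA it was higher in skip-1 than in wild type (log2 fold change 0.52 ± 0.14, adjusted p = 0.0217). AT2G30620 had 214 and 212 CPM in skip-1 with ABA, 208 and 261 in skip-1 without ABA, 135 and 167 in wild type with ABA and 196 and 218 in wild type without ABA, in the same order. AT2G30620 fell with ABA in wild type (log2 fold change -0.46 ± 0.14, adjusted p = 0.0291). In skip-1 its log2 fold change was -0.14 ± 0.14 (adjusted p = 0.502), and it was higher in skip-1 with ABA (log2 fold change 0.50 ± 0.14, adjusted p = 0.0284). For both genes the 2 libraries of wild type with ABA were below the other 6. The interactions were 0.20 ± 0.19 (adjusted p = 0.625) and 0.32 ± 0.20 (adjusted p = 0.421). AT1G06760 lost its ABA call in wild type without either library of skip-1 with ABA, library 1 of wild type with ABA or either library of wild type without ABA (adjusted p 0.00352 to 0.179). AT2G30620 lost it without library 1 of wild type with ABA or library 2 of wild type without ABA (adjusted p 0.00343 to 0.161). Against wild type, AT1G06760 lost its call without either library of skip-1 with ABA or library 1 of wild type with ABA (adjusted p 0.00359 to 0.141), and AT2G30620 without either library of skip-1 with ABA or library 1 of wild type with ABA (adjusted p 0.00542 to 0.174). Both genes overlap genes on the opposite strand.

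HIS1-3, the stress-inducible linker histone, had 13.0 and 13.9 CPM in skip-1 with ABA and 4.53 and 8.23 CPM in skip-1 without ABA. Wild-type libraries had 14.1 and 22.1 CPM with ABA and 11.6 and 19.9 CPM without ABA. The libraries of wild type overlapped between treatments, while in skip-1 both treated libraries exceeded both untreated ones. The log2 fold change with ABA was 1.09 ± 0.38 in skip-1 (edgeR adjusted p = 0.0736, DESeq2 adjusted p = 0.00840, and 0.00215 to 0.261 over the alternatives) and 0.19 ± 0.36 in wild type (adjusted p = 0.701). It was lower in untreated skip-1 than in untreated wild type (log2 fold change -1.32 ± 0.38, adjusted p = 0.0497), and with ABA the difference was -0.42 ± 0.36 (adjusted p = 0.409). The call in untreated skip-1 was lost without either library of skip-1 with ABA, library 1 of skip-1 without ABA, library 1 of wild type with ABA or library 2 of wild type without ABA, with DESeq2 size factors in edgeR, without the low-count filter and in a fit of only the groups compared (adjusted p 0.00125 to 0.226). HIS1-3 made up 4.64% and 4.89% of H1 FPKM in skip-1 with ABA, 1.63% and 2.35% in skip-1 without ABA, 7.65% and 9.61% in wild type with ABA and 4.55% and 6.94% in wild type without ABA. Its share was lowest in untreated skip-1.

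**Figure D4:**
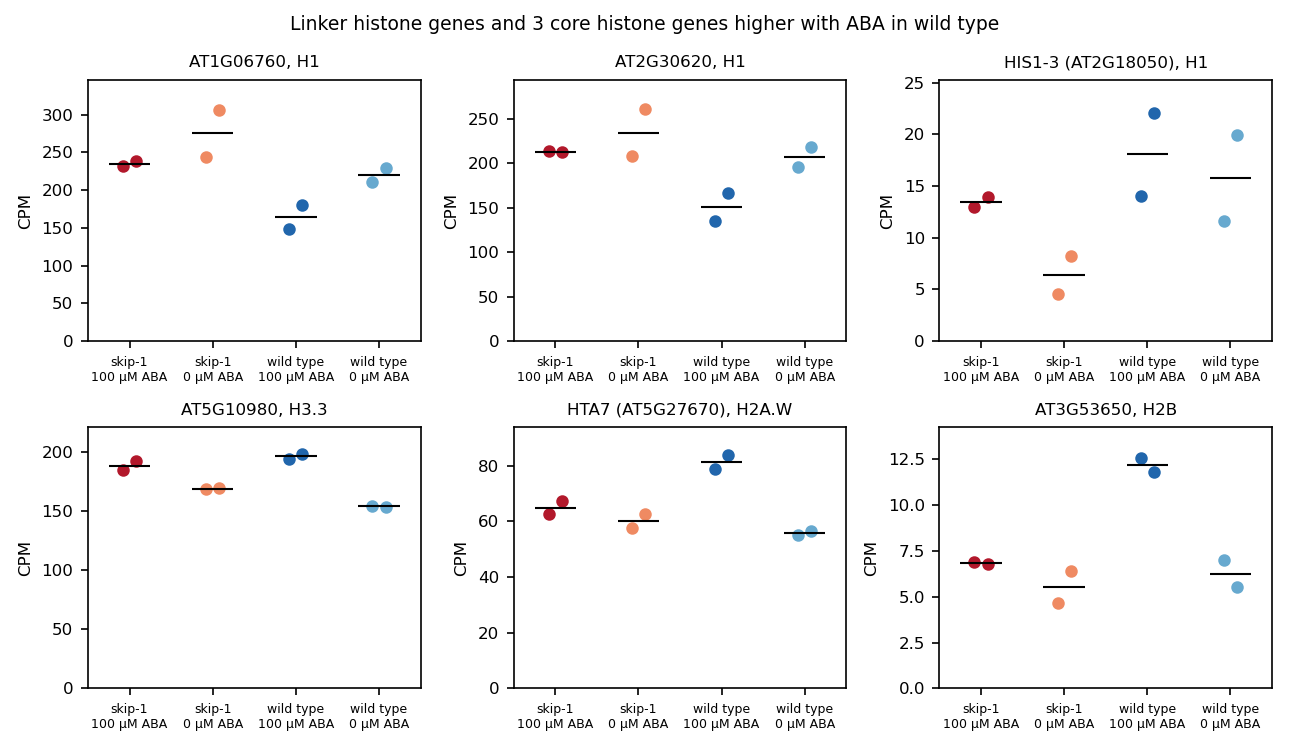
Normalised counts (CPM) by library of 6 histone genes, with points for the 2 libraries of each group and bars for their mean. The linker genes AT1G06760 and AT2G30620 are lowest in wild type with ABA, HIS1-3 is lowest in skip-1 without ABA, and HTA7 and AT3G53650 are highest in wild type with ABA.

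Across the 41 genes, calls were also counted by features the choice of genes did not use. Of the 20 genes with no intron in any transcript, 13 fell with ABA in skip-1 (median -0.47), against 9 of the 21 with an intron (median -0.23). Of all features, 12.1% fell with ABA in skip-1. The intronless genes are the 10 H2B, the 5 H3.1 and 5 of the H4 genes, so introns and class cannot be told apart. In wild type with ABA, 5 of the intronless genes fell and 2 rose (median -0.06), and 7 and 2 of the others (median -0.12). Of the 9 genes with an ABRE in the promoter window, 3 rose and 1 fell with ABA in wild type (median 0.19), against 1 that rose and 11 that fell of the other 32 (median -0.16). Of all features, 23.7% rose and 19.5% fell in wild type. Among the 3 that rose, AT5G02570 (at most 2.28 CPM, within HTA12) and AT5G10980 lost the call without any 1 of the 4 libraries compared. That of AT3G53650 held under the alternatives. Against wild type with ABA, 5 of the 9 genes with an ABRE were lower in skip-1 (median -0.43), and of the other 32, 4 were lower and 4 higher (median -0.10). Of all features, 17.4% were lower and 13.6% higher there. Since 6 of the 9 are H2B genes, motif and class cannot be told apart. Genes with the octamer fell with ABA in skip-1 in 6 of 10 cases (median -0.36), against 16 of 31 without it (median -0.41).

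Of 15 genes for histone chaperones and H2A.Z deposition, 1 rose and 0 fell with ABA in skip-1, and 3 rose and 1 fell in wild type. Both are smaller shares than the 28.5% of all features called in skip-1 and the 43.1% in wild type. NRP1 and NRP2 encode H2A-H2B chaperones related to NAP1. NRP2 had 34.1 and 36.4 CPM in skip-1 with ABA, 30.4 and 30.7 in skip-1 without ABA, 68.3 and 63.3 in wild type with ABA and 40.3 and 34.0 in wild type without ABA, with both libraries of wild type with ABA above all others. It rose with ABA in wild type (log2 fold change 0.82 ± 0.11, adjusted p = 0.000411), had a log2 fold change of 0.21 ± 0.11 in skip-1 (adjusted p = 0.196), and with ABA was lower in skip-1 (log2 fold change -0.90 ± 0.11, adjusted p = 0.000970). NRP1 rose with ABA in wild type (log2 fold change 0.75 ± 0.11, adjusted p = 0.000569), had a log2 fold change of 0.13 ± 0.11 in skip-1 (adjusted p = 0.385), and was lower in skip-1 with ABA (log2 fold change -0.61 ± 0.11, adjusted p = 0.00400). The interactions of NRP2 (-0.62 ± 0.15, adjusted p = 0.0725) and NRP1 (-0.62 ± 0.15, adjusted p = 0.0640) were not past the threshold. PIE1, the motor subunit of the SWR1 complex, rose with ABA in both genotypes (0.58 ± 0.10 in skip-1, adjusted p = 0.00382, and 0.39 ± 0.10 in wild type, adjusted p = 0.0154). ARP6, another SWR1 subunit, fell with ABA in wild type (log2 fold change -0.56 ± 0.15, adjusted p = 0.0134).

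Between the genotypes, 1 of the 15 was higher and 6 lower in skip-1 with ABA, and 2 were higher and 4 lower without ABA, where 31.0% of all features were called with ABA and 20.5% without ABA. NAP1;2 was lower in skip-1 with ABA (log2 fold change -0.53 ± 0.10, adjusted p = 0.00489). Without ABA, MSI1, a subunit of the chromatin assembly factor CAF-1, was higher in skip-1 (log2 fold change 0.57 ± 0.09, adjusted p = 0.00422), while ARP6 (-0.68 ± 0.15, adjusted p = 0.0141) and NAP1;3 (-0.55 ± 0.12, adjusted p = 0.0151) were lower. The calls of NRP1 and NRP2, of PIE1 in skip-1, of MSI1 and of NAP1;2 with ABA held under the alternatives. PIE1 lost its wild-type call without either library of wild type with ABA or library 2 of wild type without ABA and with library totals alone (adjusted p 0.00869 to 0.215), and ARP6 without library 1 of wild type with ABA or library 2 of wild type without ABA (adjusted p 0.00337 to 0.0796). Without ABA, ARP6 lost its call without either library of skip-1 without ABA or library 2 of wild type without ABA (adjusted p 0.00583 to 0.0906) and NAP1;3 without any 1 of the 4 libraries compared (adjusted p 0.00487 to 0.0692).

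DNA replication genes work in the same phase as the replication-type histones. Of 17 on the list, 1 rose and 4 fell with ABA in skip-1, and 1 rose and 2 fell in wild type. The share called was near that of all features in skip-1 (28.5%) and below it in wild type (43.1%). Lower alone were 12.1% of all features in skip-1 and 19.5% in wild type. With TMM the median log2 fold change with ABA was -0.25 in skip-1 (14 of 17 negative) and -0.10 in wild type (12 negative). Against wild type it was 0.13 in skip-1 with ABA (10 positive) and 0.32 without ABA (15 positive). The interaction median was -0.19, with 15 of 17 negative, beside -0.02 over all features. With library totals the interaction median over all features moved to 0.15, and the value of this list on that scale is not given here. The TSO2 gene for a ribonucleotide reductase small subunit had 87.6 and 73.6 CPM in skip-1 with ABA, 201 and 195 in skip-1 without ABA, 76.5 and 64.9 in wild type with ABA and 90.6 and 90.8 in wild type without ABA, with untreated skip-1 above all others. TSO2 fell with ABA in skip-1 (log2 fold change -1.29 ± 0.12, adjusted p = 0.000116) and in wild type (log2 fold change -0.36 ± 0.12, adjusted p = 0.0358), and was higher in untreated skip-1 than in untreated wild type (log2 fold change 1.12 ± 0.12, adjusted p = 0.000932). PCNA1, the sliding clamp, fell in both (-0.80 ± 0.14 in skip-1, adjusted p = 0.00348, and -0.58 ± 0.14 in wild type, adjusted p = 0.00929). RNR2A, another ribonucleotide reductase subunit, rose in both (0.69 ± 0.12 in skip-1, adjusted p = 0.00273, and 0.96 ± 0.12 in wild type, adjusted p = 0.000263). Between the genotypes, 0 were higher and 1 lower in skip-1 with ABA (RNR1, -0.41 ± 0.12, adjusted p = 0.0277), and 3 higher and 0 lower without ABA, beside 31.0% of all features called with ABA and 20.5% without ABA. Those 3 were TSO2, RNR2A (0.49 ± 0.12, adjusted p = 0.0207) and the helicase subunit MCM4 (0.55 ± 0.15, adjusted p = 0.0324).

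In skip-1 the TSO2, PCNA1 and RNR2A calls with ABA held under the alternatives. In wild type, TSO2 lost its call without library 2 of wild type with ABA or either library of wild type without ABA (adjusted p 0.00451 to 0.174) and PCNA1 without library 2 of wild type with ABA or library 1 of wild type without ABA (adjusted p 0.00263 to 0.0567). RNR1 lost its call without library 1 of skip-1 with ABA or either library of wild type with ABA and with library totals alone (adjusted p 0.0194 to 0.168). In untreated skip-1, RNR2A lost its call without library 1 of skip-1 without ABA or either library of wild type without ABA and in a fit of only the groups compared (adjusted p 0.0103 to 0.139) and MCM4 without either library of skip-1 without ABA or library 2 of wild type without ABA and in a fit of only the groups compared (adjusted p 0.0121 to 0.191).

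Of 14 mitotic genes, 0 rose and 1 fell with ABA in skip-1 (CDKB1;2, -0.59 ± 0.19, adjusted p = 0.0490), and 1 rose and 2 fell in wild type, both below the shares of all features (28.5% in skip-1 and 43.1% in wild type). The median log2 fold change with ABA was -0.14 in skip-1 and -0.27 in wild type, with 10 of 14 negative in each. Over all features it was -0.02 in skip-1 and -0.01 in wild type. In wild type the kinase gene AUR2 rose (log2 fold change 0.57 ± 0.14, adjusted p = 0.00899), while the kinase gene CDKB1;2 (-0.71 ± 0.20, adjusted p = 0.0204) and the cyclin gene CYC1BAT (-0.44 ± 0.14, adjusted p = 0.0336) fell. Against wild type, 4 were higher and 0 lower in skip-1 with ABA, and 1 was higher without ABA, where 31.0% of all features were called with ABA (13.6% higher) and 20.5% without ABA (10.4% higher). The median was 0.32 with ABA (12 of 14 positive) and 0.26 without ABA (13 of 14 positive), beside -0.02 and 0.02 over all features. With ABA the smallest adjusted p were those of CYCB2;3 (0.58 ± 0.15, 0.0200), CYCB1;1 (0.60 ± 0.17, 0.0293) and CYC1BAT (0.45 ± 0.14, 0.0408). CYCB2;3 was also the gene called without ABA (0.63 ± 0.15, adjusted p = 0.0209). In skip-1, CDKB1;2 lost its call without any 1 of the 8 libraries, without the low-count filter, with DESeq2 and in a fit of only the groups compared (adjusted p 0.0408 to 0.227).

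In wild type, CDKB1;2 lost its call without library 2 of wild type with ABA or library 1 of wild type without ABA (adjusted p 0.00582 to 0.102), AUR2 without library 2 of wild type with ABA or library 2 of wild type without ABA and with library totals alone (adjusted p 0.00899 to 0.0657) and CYC1BAT without library 2 of wild type with ABA or either library of wild type without ABA (adjusted p 0.00771 to 0.147). Against wild type with ABA, CYCB2;3 lost its call without library 2 of skip-1 with ABA or either library of wild type with ABA (adjusted p 0.0109 to 0.132) and CYCB1;1 without any 1 of the 4 libraries compared and with DESeq2 (adjusted p 0.0168 to 0.128). CYC1BAT lost it without any 1 of the 4 libraries compared or either library of wild type without ABA and with DESeq2 (adjusted p 0.0192 to 0.190). Without ABA, CYCB2;3 lost its call without library 1 of skip-1 without ABA or either library of wild type without ABA (adjusted p 0.0173 to 0.129).

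Markers of the organs that a seedling holds moved as well, and their part in the histone values was not tested. Of all features, 28.5% were called with ABA in skip-1 (12.1% lower) and 43.1% in wild type (19.5% lower). Between the genotypes, 31.0% were called with ABA and 20.5% without ABA. Of 3 root markers, 2 fell with ABA in skip-1 and all 3 in wild type, namely CASP2 (-1.38 ± 0.28 in skip-1 and -2.63 ± 0.29 in wild type), CASP1 (-0.75 ± 0.18 in skip-1 and -1.08 ± 0.18 in wild type) and, in wild type, NUTCRACKER (-0.94 ± 0.21). NUTCRACKER was also higher in skip-1 than in wild type with ABA (log2 fold change 0.89 ± 0.22, adjusted p = 0.0156). Of 3 leaf markers, CAB3 fell with ABA in both genotypes (adjusted p = 0.00502 in skip-1, and log2 fold change -1.15 ± 0.19 with adjusted p = 0.00135 in wild type), while RBCS1A and LHCB2.1 had no ABA call. CAB3 was higher in skip-1 with ABA (1.53 ± 0.19) and without ABA (1.37 ± 0.19), as was LHCB2.1 (2.78 ± 0.56 and 2.89 ± 0.56). Of 6 meristem markers, WUS and CLV3 stayed at or below 0.0455 and 0.0990 CPM and were not tested. With ABA in wild type, STM, a gene of the shoot meristem, fell (log2 fold change -0.89 ± 0.28, adjusted p = 0.0308), while WOX5, a gene of the root niche, rose (log2 fold change 1.55 ± 0.30, adjusted p = 0.00345) and with ABA was lower in skip-1 (log2 fold change -0.90 ± 0.29, adjusted p = 0.0469). No meristem marker was called with ABA in skip-1. STM lost its call without library 1 of wild type with ABA or library 2 of wild type without ABA (adjusted p 0.0112 to 0.222), and WOX5 lost that against wild type without any 1 of the 4 libraries compared or library 1 of wild type without ABA, with library totals alone and with DESeq2 (adjusted p 0.0213 to 0.195). CASP1 lost its call in skip-1 without library 2 of skip-1 with ABA or library 2 of skip-1 without ABA (adjusted p 0.00512 to 0.0824). NUTCRACKER lost its call in wild type without library 2 of wild type without ABA (adjusted p 0.00288 to 0.0508) and that against wild type without library 1 of skip-1 with ABA or either library of wild type with ABA (adjusted p 0.00976 to 0.103). LHCB2.1 lost its calls with ABA without library 1 of skip-1 with ABA or library 2 of wild type with ABA (adjusted p 0.000101 to 0.0721) and without ABA without library 1 of skip-1 without ABA or library 2 of wild type without ABA and without the low-count filter (adjusted p 8.8e-05 to 0.0977).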

How the data were processed

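Messenger RNA of whole seedlings was sequenced in 8 libraries, 2 in each of 4 groups, and the deposited table of raw read counts per gene was the basis of all tests. Per the submitters' processing notes, Bowtie2 2.2.3, TopHat2 2.0.12 and HTSeq 0.6.1 were used on the TAIR10 genome. The sources used here give neither their roles nor a strand setting or annotation release. The authors also deposited FPKM, which equals the count divided by 1 gene length and by the column total.

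Counts were fitted in R 4.3.3 with edgeR 4.0.16. The filterByExpr filter was applied by group, libraries were scaled by the trimmed mean of M values (TMM), and each group had its own coefficient in a robust quasi-likelihood fit. The fit had 4 residual degrees of freedom and a common dispersion of 0.0178. P-values were adjusted over 21008 features by the Benjamini-Hochberg method, with a threshold of 0.05. The standard error (SE), taken as the size of the log2 fold change over the root of its F statistic, is approximate. Normalised counts (CPM) use TMM-scaled library sizes. The alternatives were DESeq2 1.42.0, other scalings, filters and sample sets, the replicate number as a block, and leaving out each library. Same-numbered libraries deviated together from their group means, with correlations of 0.131 to 0.327 over 6 pairs of groups. The pairing is taken from this check and not from the labels, which do not say what a shared number means. The fitting script was tested on simulated data.

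Gene symbols, positions, introns and promoter sequences came from RefSeq's annotation of TAIR10.1. A promoter was the 250 bases before and 50 bases after the annotated start. The histone genes and the other gene lists were chosen with earlier results of these data known. Every histone gene past the threshold was named, up to 6 per class and direction in a comparison, as were the most and the least abundant gene of each class. Up to 3 genes of each other list with the smallest adjusted p were also named in each comparison. Splicing was not measured from these gene counts.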

Additional observations from a re-analysis of the deposited data

Results flagged for a closer look

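TSO2 (AT3G27060), a small subunit of ribonucleotide reductase on the DNA replication list, was the 1 named gene whose ABA effect differed between the genotypes in a test of the difference itself. Its interaction was -0.94 on the log2 scale (SE 0.17, edgeR adjusted p = 0.0268). Its levels were 87.6 and 73.6 CPM in skip-1 with ABA and 201 and 195 CPM in skip-1 without ABA. In wild-type seedlings the values were 76.5 and 64.9 CPM with ABA and 90.6 and 90.8 CPM without ABA. The call was lost without library 2 of skip-1 with ABA, library 1 of wild type with ABA or either library of wild type without ABA and with library totals alone (adjusted p 0.000709 to 0.109).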

How the results depend on the processing

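With library totals alone, 22 histone genes fell with ABA in wild type, and against wild type 2 were lower in skip-1 without ABA and 4 with ABA. With DESeq2 size factors, with no filter on low counts and with only the groups compared, 0 were lower in skip-1 than in wild type without ABA. For the ABA effect in skip-1, 1 gene was called higher with DESeq2 and with only the groups compared. DESeq2 called the interaction in 1201 genes, against 644 in edgeR.

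With the replicate number as a block, 1 histone gene was higher with ABA in skip-1, 9 were higher and 2 lower in skip-1 than in wild type without ABA, and 2 passed the interaction (AT5G10400 and AT5G59970), where 1357 genes passed in all. The block ended no call of a named gene.

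Leaving out each library in turn gave, with ABA in skip-1, 0 to 1 higher and 14 to 22 lower, and in wild type 2 to 4 higher and 7 to 14 lower. Against wild type the counts were 0 to 4 higher and 2 to 9 lower with ABA, and 0 to 4 higher and 0 to 1 lower without ABA. All genes called ran from 3532 to 5625 for ABA in skip-1, 6585 to 9368 in wild type, 3521 to 6851 and 1383 to 3785 for skip-1 with and without ABA, and 121 to 608 for the interaction. With 2 libraries per group, small differences between genotypes could not be resolved. Ratios of class sums stayed within the spread between libraries in 22 of 48 cases with library totals and in 24 of 48 with FPKM. Both scales divide by the column total and leave out the TMM factors, which ran from 0.908 to 1.06 over the libraries. They are therefore not separate checks.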

Other observations

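Of 7 further histone genes outside the 41, 4 passed the filter on low counts, and 3 of these differed between the genotypes. Among all tested features, 31.0% were called between the genotypes with ABA and 20.5% without ABA. Raw counts were low, at 3 to 7 in the skip-1 libraries for HTA4 and 4 to 8 in the wild-type libraries for AT1G13370. HTA4 (AT4G13570), an H2A gene, fell in skip-1 under both treatments, with 0.273 and 0.318 CPM in skip-1 with ABA and 0.200 and 0.141 CPM in skip-1 without ABA. Wild type had 3.41 and 3.45 CPM with ABA and 2.87 and 1.98 CPM without ABA. Its log2 fold change was -3.51 ± 0.36 with ABA (adjusted p = 0.000544) and -3.77 ± 0.39 without ABA (adjusted p = 0.000932), and both calls held under all 15 alternatives. AT1G13370, an H3 gene, rose in skip-1, with 1.50 and 1.23 CPM in skip-1 with ABA and 1.00 and 0.941 CPM in skip-1 without ABA. The wild-type values were 0.396 and 0.209 CPM with ABA and 0.249 and 0.284 CPM without ABA. Its log2 fold change was 2.14 ± 0.43 with ABA (adjusted p = 0.00706) and 1.85 ± 0.43 without ABA (adjusted p = 0.0197). The call without ABA was lost without library 1 of skip-1 without ABA or either library of wild type without ABA and with DESeq2 (adjusted p 0.0183 to 0.0979). AT1G75600, another H3 gene, was listed at 1.14 and 0.863 CPM in skip-1 with ABA and 0.721 and 0.235 CPM in skip-1 without ABA. Wild type was at 0.396 and 0.104 CPM with ABA and 0 and 0.0405 CPM without ABA. Its adjusted p without ABA was 0.0346, a call lost without library 1 of skip-1 with ABA, library 1 of skip-1 without ABA or either library of wild type without ABA (adjusted p 0.0190 to 0.185), and no fold is given because wild type without ABA was at or near a count of 0. The centromeric H3 gene HTR12 had 3.69 and 5.04 CPM in skip-1 with ABA, 4.53 and 3.72 in skip-1 without ABA, 4.35 and 3.50 in wild type with ABA and 4.40 and 3.93 in wild type without ABA and passed the threshold in none of the 5 comparisons.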
